A study of Mus musculus with 36 samples.

Results

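The genes described here are 42 named genes of the NRF2 pathway and of antioxidant defence, followed across RNA-seq libraries of C2C12 myotubes, the mouse skeletal muscle cell line fused into contractile fibres in culture. They were taken by name from the deposited count table, with the condition that a gene had at least 1 CPM (1 count per 1000000 counts of the library) in at least 12 of the 36 libraries. Each of the 42 names had exactly 1 row and all 42 passed, among 13995 genes that passed in a table of 55416. Myotubes were transfected on day 3 of differentiation with a negative control locked nucleic acid (LNA, called Control) or with an antisense LNA against the long non-coding RNA *Tug1* (*Tug1* KD), and were used on day 4. They were then left with electrodes in the medium but not connected (Rest), or made to contract by electrical pulse stimulation (EPS) for 3 h at 13 V and 66 Hz, in 2 ms pulses, alternating 5 s of stimulation with 5 s of pause. Stimulated wells were harvested either when the stimulation ended (EPS 0h) or 3 h later, to include a recovery period (EPS 3h). This gave 6 groups of 6 libraries, all of which had received an LNA. The study's methods describe triplicate wells from 2 independent experiments on this 1 cell line. The 6 libraries of a group are therefore not 6 independent experiments. The main tests hold no term for the experiment, so their spread mixes differences between wells with those between experiments.

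NRF2, encoded by *Nfe2l2*, is a transcription factor that pairs with small MAF proteins on antioxidant response elements and activates genes for glutathione and thioredoxin recycling, detoxifying conjugation, quinone reduction, iron storage and NADPH supply. In resting cells KEAP1 holds NRF2 for ubiquitination, and oxidants or electrophiles that modify KEAP1 let NRF2 accumulate, so that control lies largely at the protein and not at the mRNA. BACH1 competes for the same elements, and in contracting muscle the pathway is known as part of the response to reactive oxygen species.

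The sequence that NRF2 recognises was looked for in the promoters of the members, because NRF2 acts on its targets through it. Of the 42 members, 35 had a promoter in the RefSeq table on build GRCm38.p6, which holds 250 bases before and 50 bases after each annotated start. The core TGACNNNGC, read on both strands, was present in 13 of the 35 (37.1%), against 14.0% of all 27025 genes in the table. The members were chosen as genes of this pathway, so the higher share is not an independent result. The 27025 genes were also not limited to those that passed the filter on counts. The members with a match were *Nfe2l2*, *Maff*, *Mafg*, *Mafk*, *Gclm*, *Txnrd1*, *Srxn1*, *Prdx1*, *Sod1*, *Mgst1*, *G6pdx*, *Pgd* and *Me1*. The sequences shown are those of the 8 members with a match that differed between EPS 0h and Rest, and of *Prdx1* and *Me1*, which rose between EPS 0h and EPS 3h. Each is written 5′ to 3′ on the strand of the gene, with the matched core in capitals, and reads GCNNNGTCA where the match lies on the opposite strand.
Nfe2l2 (chr2:75704885-75704913, minus strand): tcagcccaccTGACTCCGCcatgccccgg
Maff (chr15:79346499-79346527, plus strand): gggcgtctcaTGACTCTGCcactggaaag
Mafg (chr11:120633751-120633779, minus strand): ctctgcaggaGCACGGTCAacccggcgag
Gclm (chr3:122245413-122245441, plus strand): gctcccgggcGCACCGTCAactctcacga
Txnrd1 (chr10:82859104-82859132, plus strand): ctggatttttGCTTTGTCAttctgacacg
Srxn1 (chr2:152105542-152105570, plus strand): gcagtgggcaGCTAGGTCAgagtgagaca
G6pdx (chrX:74428919-74428947, minus strand): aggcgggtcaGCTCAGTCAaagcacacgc
Pgd (chr4:149166061-149166089, minus strand): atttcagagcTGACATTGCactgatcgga
Prdx1 (chr4:116685456-116685484, plus strand): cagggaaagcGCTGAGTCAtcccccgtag
Me1 (chr9:86695902-86695930, minus strand): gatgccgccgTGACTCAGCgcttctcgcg

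*Prdx1* and *Me1* carried the same core, TGACTCAGC, on opposite strands relative to the gene, which also holds the AP-1 type sequence TGANTCA. This shorter sequence was present in 6 of the 35 members (17.1%) against 8.97% of all genes. The longer form TGACNNNGCA was present in *Txnrd1* and *Pgd* only among the 35, against 3.45% of all genes, in each case not at every annotated start of the gene. *Abcc1*, *Aldh3a1*, *Gclc*, *Gsr*, *Gsta4*, *Hmox1* and *Prdx6* were not among the promoters. The 250 bases before the start are shown whole for *G6pdx*, which was lower at both times after EPS, and for *Prdx1*, which rose in recovery.
G6pdx (chrX:74428881-74429130, minus strand): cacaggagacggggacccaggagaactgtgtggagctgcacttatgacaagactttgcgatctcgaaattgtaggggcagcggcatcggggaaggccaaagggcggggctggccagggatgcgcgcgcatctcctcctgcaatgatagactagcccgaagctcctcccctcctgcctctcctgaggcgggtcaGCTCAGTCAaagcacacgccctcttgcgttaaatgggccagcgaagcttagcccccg
Prdx1 (chr4:116685349-116685598, plus strand): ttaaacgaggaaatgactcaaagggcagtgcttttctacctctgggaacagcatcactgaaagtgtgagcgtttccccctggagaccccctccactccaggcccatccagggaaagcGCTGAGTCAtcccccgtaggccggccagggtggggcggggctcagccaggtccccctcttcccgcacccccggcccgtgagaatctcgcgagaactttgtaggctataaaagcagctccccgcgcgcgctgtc
Of the 15 members with a promoter that were lower at EPS 0h in control myotubes, 6 held the core, as did both of the higher members. Of the rest of the 35, which did not pass the test, 5 held it. Whether the core goes with the response to EPS was not tested. A match is a run of letters in these windows and was not tested as a binding site.

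The libraries held 17005079 to 24181167 counts, and the members took 0.72% to 1.52% of them, with at least 32 counts for every member in every library. Levels are given as RPM, reads per 1000000 after TMM scaling. At Rest the level of *Tug1* itself was 48.3 (6.77) RPM with the control LNA against 27.2 (3.68) RPM with the knockdown (mean (SD), n = 6 here and throughout) (log2FC -0.83, SE 0.17, FDR 0.000915). It ranged over 54.9 to 80.4 RPM against 29.4 to 61.7 RPM at EPS 0h (log2FC -0.57, FDR 0.0178) and 54.5 to 107 RPM against 39.9 to 84.3 RPM at EPS 3h (log2FC -0.51, FDR 0.0414). The 10 myotube markers were all present, with *Myh3* at 4512 (1214) RPM and *Myog* at 927 (121) RPM in Rest Control, and none of the 10 passed edgeR, limma-voom or DESeq2 between EPS and Rest in Control (1 had an unadjusted p under 0.05 at EPS 0h and 0 at EPS 3h), although with the replicate number as a block *Actc1* and *Ttn* passed at EPS 0h and *Actc1* at EPS 3h. Replicates 1 to 3 and 4 to 6 stood apart in each of the 6 groups, so that the log2FC within each set of 3 is given beside the main results. In whole-culture RNA, a change in the share of cells that express a gene and a change in RNA per cell cannot be told apart. The strand setting of the count and its handling of reads that match several places are not given in the sources used here, so values for near-identical copies such as *Gstm1* and *Gstm2*, for the ferritin genes with processed copies, and for genes with a neighbour on the opposite strand such as *G6pdx* and *Me1* are uncertain.

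At Rest in control myotubes the members spanned a wide range of levels. Per kilobase of exon, the highest was *Hmox1*, the haem oxygenase, at 1507 RPM per kb. It was followed by *Fth1*, the ferritin heavy chain, at 551 RPM per kb, then *Gpx4*, the phospholipid hydroperoxidase, at 295 and *Sqstm1*, the p62 adaptor that also binds KEAP1, at 241 RPM per kb. The lowest were *Mgst2*, a microsomal glutathione transferase, at 2.03 RPM per kb and *Slc7a11*, the cystine importer, at 2.43 RPM per kb. The length used merges all annotated exons of a gene, at 1759 bases for *Hmox1* and 3520 for *Fth1*. It can exceed the length of the transcript made, so this order is approximate.

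**Figure D1:**
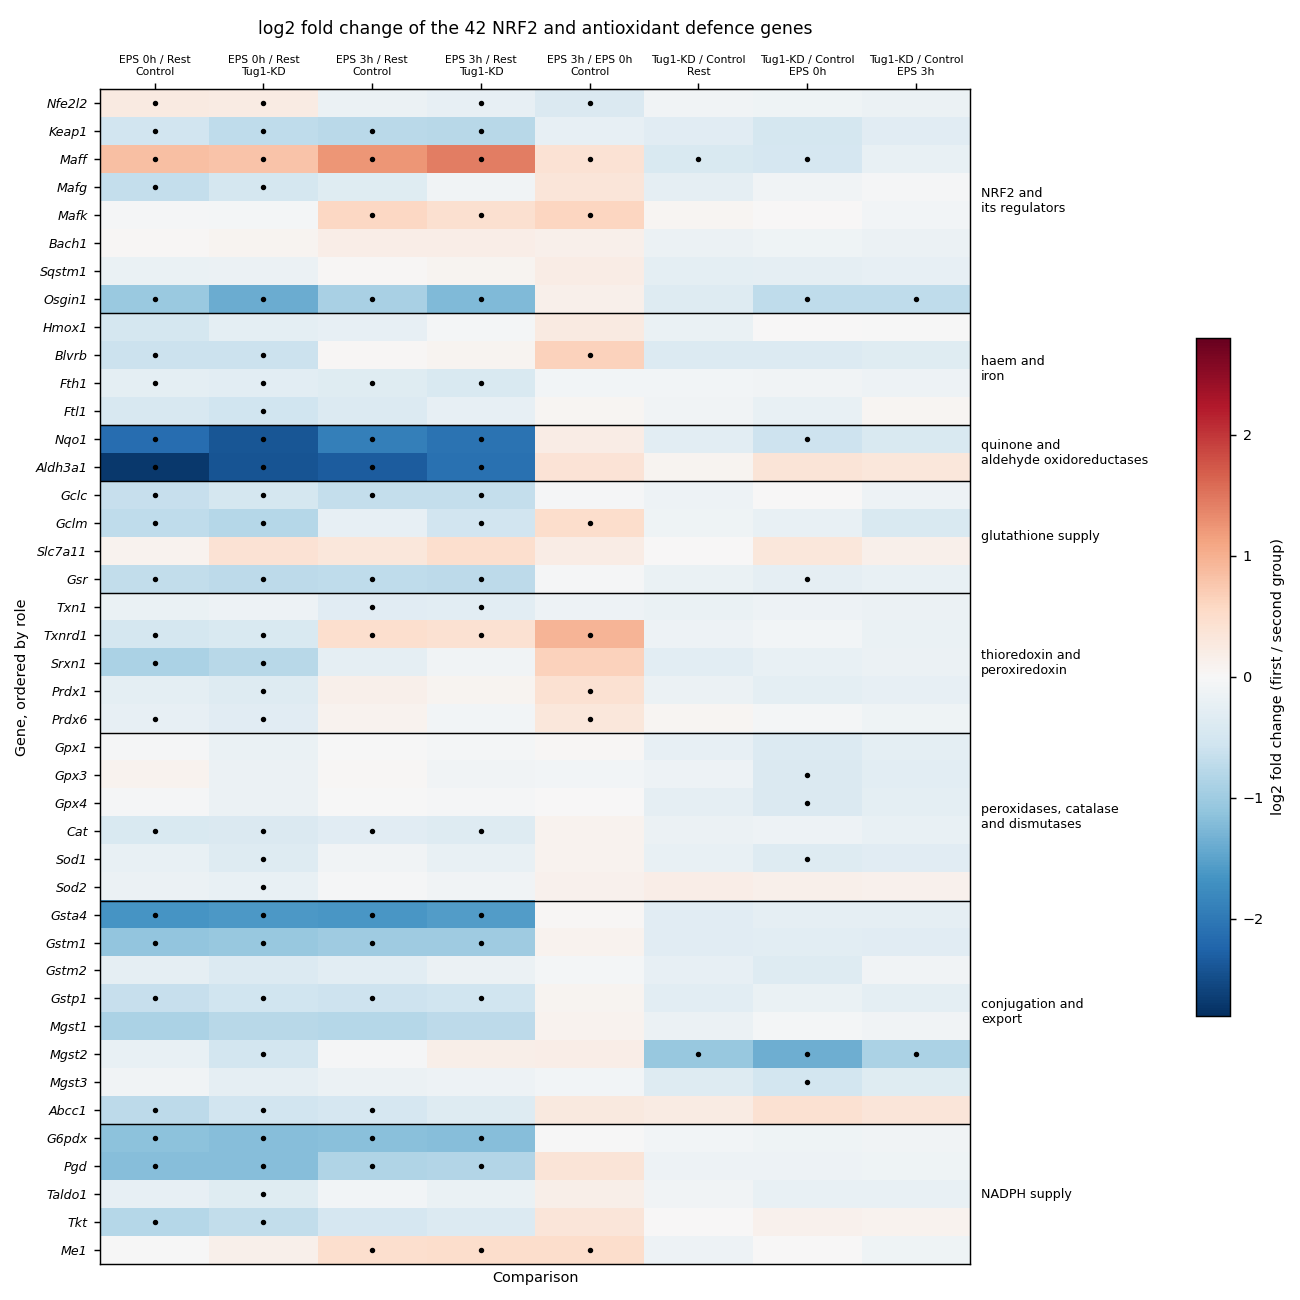
Heat map of log2 fold change for the 42 members (rows, ordered by role) in 8 comparisons (columns), from blue for lower to red for higher in the first group named. A dot marks FDR under 0.05 in edgeR over all 13995 genes. *Nqo1* and *Aldh3a1* form the darkest blue rows after EPS, at log2FC -2.12 and -2.71 at EPS 0h in Control, and *Maff* the darkest red, at 1.44 at EPS 3h in *Tug1* KD.

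The comparison of EPS 0h with Rest in control myotubes asked how these genes moved with stimulation, without the knockdown. Contraction and other effects of the current cannot be told apart in this design. Most members that changed were lower at the end of stimulation: 21 fell and 2 rose, with edgeR's quasi-likelihood test at FDR under 0.05 over all genes tested. Of all 13995 genes, 38.9% passed, 18.4% as lower and 20.5% as higher. The median log2FC of the 42 members was -0.43, against -0.03 for all genes tested. With the study's stricter cut for EPS (FDR under 0.01 and a log2FC beyond 1), 7 members were lower and none higher, where 2.20% of all genes were lower. In 21 members every stimulated library lay below every resting one, among them *Sod2*, which did not pass the test, and not *Keap1*, which did. That held for 10.1% of all genes. Replicates 1 to 3 gave a member median of -0.47, and replicates 4 to 6 one of -0.39.

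After 3 h of recovery, 15 members were lower than at Rest and 4 higher. The design held no Rest group matched to the recovery time. In every comparison with EPS 3h, recovery and the longer time in culture therefore cannot be told apart. Of all genes, 52.0% differed, 25.9% as lower and 26.1% as higher. The member median was -0.24 (-0.02 for all genes), with -0.14 and -0.32 in the 2 sets of replicates. The groups did not overlap for 11 of the lower members, against 13.8% of all genes. At the stricter cut 4 members were lower and 1 higher, where 4.72% and 9.62% of all genes were. Scaling by library size alone, in place of TMM, shifted the median of all genes at EPS 3h against Rest by -0.17, and then 24 members were lower and 3 higher, and 8 passed the stricter cut. With that scaling 8210 of all 13995 genes passed, and 2152 passed the stricter cut. The same scaling gave 24 lower and 1 higher at EPS 0h, where 5807 of all 13995 genes passed. The members lower at both times were *Keap1*, *Osgin1*, *Fth1*, *Nqo1*, *Aldh3a1*, *Gclc*, *Gsr*, *Cat*, *Gsta4*, *Gstm1*, *Gstp1*, *Abcc1*, *G6pdx* and *Pgd*.

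Between EPS 0h and EPS 3h, without reference to Rest, 8 members rose and 1 fell in control myotubes, where 9.67% of all genes rose and 6.88% fell (16.6% in all). Those that rose were *Maff*, *Mafk*, *Blvrb*, *Gclm*, *Txnrd1*, *Prdx1*, *Prdx6* and *Me1*, and the one that fell was *Nfe2l2*. The median of the 42 was 0.14, against -0.01 for all genes, and it was 0.30 in replicates 1 to 3 but 0.02 in replicates 4 to 6. None passed the stricter cut with edgeR, limma-voom or DESeq2, although 10 had an unadjusted p under 0.05. That cut 3.82% of all genes passed. The median over replicates 1 to 3 includes EPS 3h Control replicate 3, which stood well above replicates 1 and 2 for several members. *Hmox1* measured 3342 RPM there against 1581 and 1445 RPM, and *Srxn1* 413 against 190 and 168 RPM. Other members did not follow, such as *Me1* at 105 against 132 and 137 RPM. The same library is part of the comparison of EPS 3h with Rest. These comparisons share the EPS 0h or the Rest libraries, so the values of each are given side by side below.

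**Figure D2:**
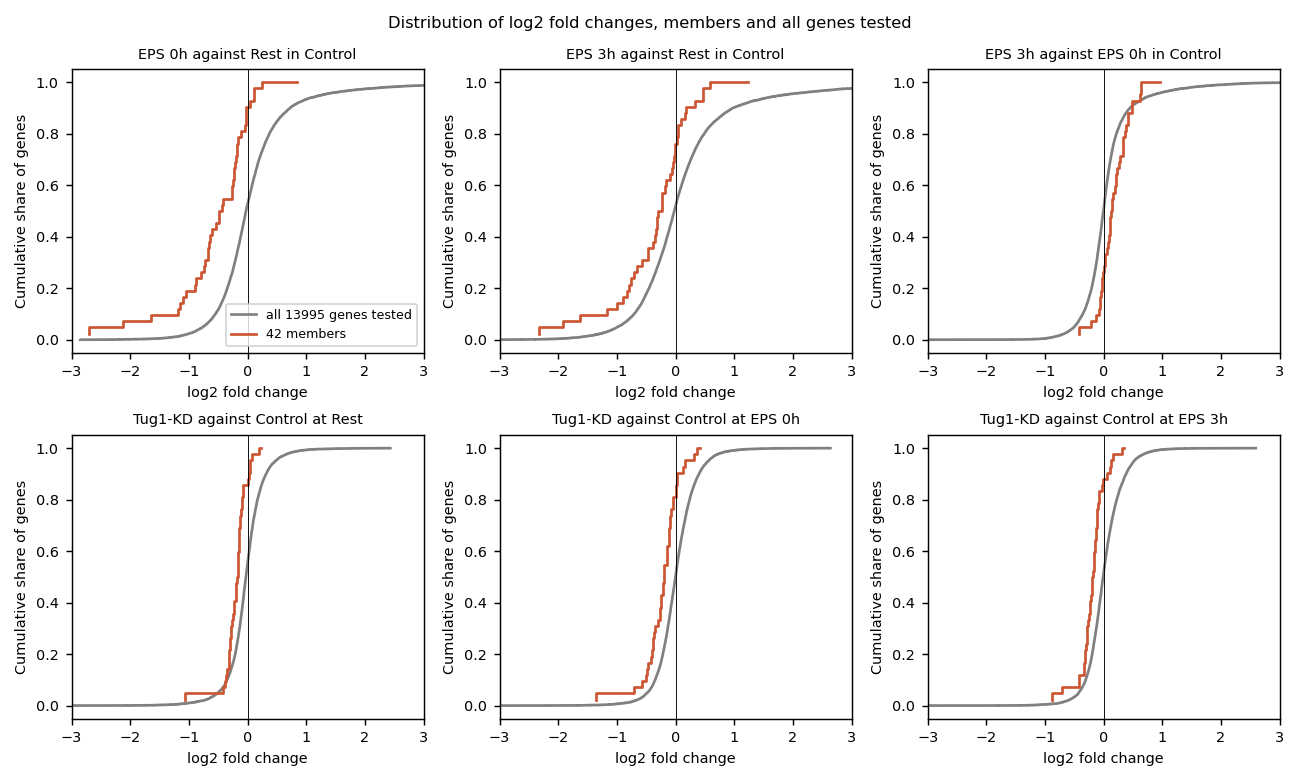
Cumulative share of genes (y axis) against log2 fold change (x axis, shown from -3 to 3) for the 42 members (red) and all 13995 genes tested (grey), in 6 comparisons. At EPS 0h and EPS 3h against Rest the member curve lies to the left of the grey curve, with medians of -0.43 and -0.24, and between EPS 3h and EPS 0h mostly to its right, with a median of 0.14.

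Among NRF2 and its regulators, a group of 8, the transcription factor gene itself moved little. *Nfe2l2* (chr2:75504739-75534985, minus strand in the GENCODE annotation on GRCm39, the build of the count table and of each gene position) had lowest, median and highest levels of 144, 163 and 192 RPM in Rest Control, 152, 193 and 231 RPM at EPS 0h and 141, 143 and 159.6 RPM at EPS 3h. The EPS 0h libraries reached highest but overlapped both other groups. It was 1.19-fold higher at EPS 0h (log2FC 0.25, SE 0.088, FDR 0.0249), with log2FC 0.37 and 0.10 in replicates 1 to 3 and 4 to 6. The FDR was 0.0041 in the first set alone, 0.533 in the second alone and 0.131 with scaling by library size only. It was 1.33-fold lower at EPS 3h than at EPS 0h (log2FC -0.42, SE 0.088, FDR 0.000752), with 6 of 6 EPS 3h libraries below the EPS 0h mean. *Keap1* (chr9:21141026-21150679, minus strand), the adaptor that targets NRF2 for degradation, measured 47.8, 57.8 and 68.5 RPM in Rest Control, 29.3, 40.0 and 53.1 RPM at EPS 0h and 22.0, 39.1 and 41.0 RPM at EPS 3h. Its EPS 3h libraries all lay below Rest, while at EPS 0h the ranges overlapped. It was 1.45-fold lower at EPS 0h (log2FC -0.54, SE 0.17, FDR 0.0124) and 1.70-fold lower at EPS 3h (log2FC -0.76, SE 0.17, FDR 0.000339).

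The small MAF genes, whose products are the partners of NRF2 on DNA, differed from one another. *Maff* (chr15:79230821-79243276, plus strand) measured 55.8, 67.0 and 77.9 RPM at Rest, 96.0, 117 and 138 RPM at EPS 0h and 135, 148 and 215 RPM at EPS 3h. Every stimulated library was above every resting one at both times. It rose 1.78-fold at EPS 0h (log2FC 0.84, SE 0.13, FDR 2.58e-06) and 2.36-fold at EPS 3h (log2FC 1.24, SE 0.13, FDR 4.13e-10), and was the 1 member past the stricter cut as higher. *Mafk* did not pass at EPS 0h (log2FC -0.03, FDR 0.886) and was higher at EPS 3h (log2FC 0.59, FDR 0.000134), with no overlap with Rest, whereas *Mafg* was lower at EPS 0h (log2FC -0.67, FDR 0.0044) and was log2FC -0.34, FDR 0.127 at EPS 3h. With the replicate number as a block, *Mafg* at EPS 3h gave log2FC -0.38, FDR 0.0142.

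*Osgin1* (chr8:120152470-120173000, plus strand), a growth inhibitor induced by oxidative stress, fell most in this group. It measured 236, 276 and 331 RPM at Rest, 89.6, 128 and 196 RPM at EPS 0h and 82.8, 162 and 220.2 RPM at EPS 3h, without overlap between either stimulated group and Rest. It was 2.06-fold lower at EPS 0h (log2FC -1.04, SE 0.24, FDR 0.000753) and 1.87-fold lower at EPS 3h (log2FC -0.90, SE 0.24, FDR 0.00183). *Bach1*, the repressor that competes with NRF2, and *Sqstm1* did not pass the test at either time, with log2FC 0.04 and 0.18 for *Bach1* and -0.18 and 0.03 for *Sqstm1*.

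In the haem and iron group of 4, 2 members were lower at EPS 0h and 1 at EPS 3h. *Blvrb*, a biliverdin reductase, was 40.5 (1.59) RPM at Rest, 26.6 (5.33) at EPS 0h and 41.5 (18.0) at EPS 3h. It was lower at EPS 0h (log2FC -0.61, FDR 0.014) and higher at EPS 3h than at EPS 0h (log2FC 0.64, FDR 0.0212), with the rise larger in replicates 1 to 3 (log2FC 1.10 and 0.20 in the 2 sets). Replicates 1 to 3 measured 34.5, 33.0 and 75.7 RPM at EPS 3h in Control, so replicate 3 stood well above the others. *Fth1* was 1.21-fold lower at EPS 0h (log2FC -0.27, FDR 0.0383) and 1.27-fold lower at EPS 3h (log2FC -0.35, FDR 0.00574). *Hmox1*, a widely used NRF2 target, measured 2146, 2608 and 3456 RPM at Rest and 1264, 1749 and 2755 RPM at EPS 0h, and the groups overlapped. It did not pass the test at EPS 0h (log2FC -0.49, FDR 0.118), but did with the replicate number as a block (log2FC -0.55, FDR 0.0016), and at EPS 3h was log2FC -0.24, FDR 0.438. *Ftl1*, the ferritin light chain, gave log2FC -0.44 and -0.38 and passed at neither time.

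The 2 quinone and aldehyde oxidoreductases showed the deepest falls of the 42. *Nqo1* (chr8:108113835-108129934, minus strand), the quinone reductase often used as a readout of NRF2 activity, measured 47.5, 50.9 and 58.0 RPM at Rest, 8.28, 11.2 and 15.5 RPM at EPS 0h and 9.60, 12.8 and 20.0 RPM at EPS 3h. No stimulated library reached the lowest resting one. It was 4.36-fold lower at EPS 0h (log2FC -2.12, SE 0.18, FDR 3.16e-11) and 3.78-fold lower at EPS 3h (log2FC -1.92, SE 0.18, FDR 5.23e-11). *Aldh3a1* (chr11:61098363-61109247, plus strand), an aldehyde dehydrogenase of lipid aldehydes, measured 90.9, 105 and 123 RPM at Rest, 14.0, 14.6 and 22.7 RPM at EPS 0h and 14.9, 15.8 and 37.3 RPM at EPS 3h, again with no overlap. It was 6.55-fold lower (log2FC -2.71, SE 0.24, FDR 4.04e-11) and 5.04-fold lower (log2FC -2.33, SE 0.23, FDR 1.76e-10). The falls at EPS 0h were of like size in the 2 sets of replicates, at -2.21 and -2.04 for *Nqo1* and -2.78 and -2.64 for *Aldh3a1*.

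**Figure D3:**
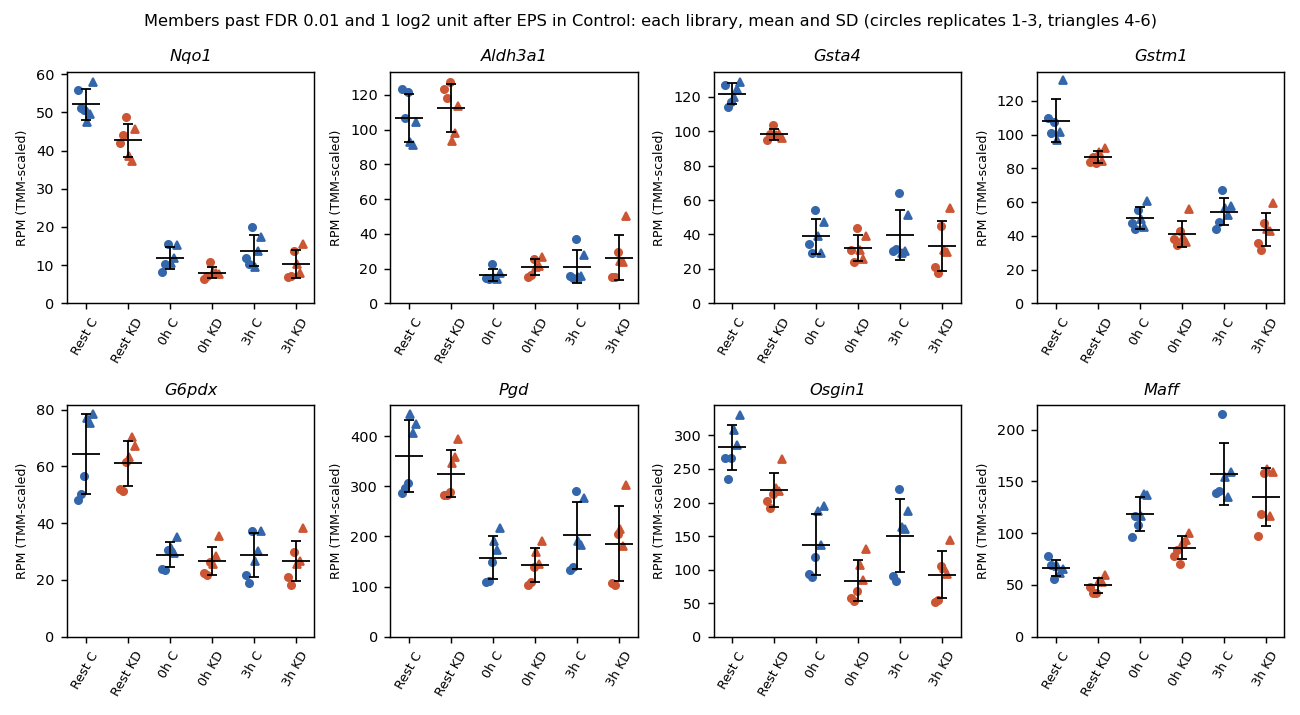
Level of the 8 members past FDR 0.01 and 1 log2 unit after EPS in Control, in RPM (y axis, from 0), for every library in the 6 groups (x axis, C for Control in blue, KD for *Tug1* KD in orange), with circles for replicates 1 to 3, triangles for 4 to 6, and lines for mean and SD. In Control, *Nqo1* falls from a resting mean of 52.1 RPM to one of 11.9 RPM at EPS 0h, while *Maff* climbs from 66.5 to 157 RPM at EPS 3h.

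Of the 4 genes for glutathione supply, 3 were lower at EPS 0h and 2 at EPS 3h. *Gclc* and *Gclm* encode the catalytic and modifier subunits of glutamate-cysteine ligase, the rate-limiting step of glutathione synthesis. *Gclc* was lower at both times (log2FC -0.64, FDR 0.000386 at EPS 0h, log2FC -0.67, FDR 0.000141 at EPS 3h). *Gclm* was lower at EPS 0h (log2FC -0.72, FDR 0.000652) and then higher at EPS 3h than at EPS 0h (log2FC 0.48, FDR 0.0371), at 133 (14.2), 80.8 (17.3) and 113 (29.8) RPM in Rest, EPS 0h and EPS 3h. Against Rest it gave log2FC -0.23, FDR 0.232 at EPS 3h and log2FC -0.27, FDR 0.0452 with the replicate number as a block. *Gsr*, which recycles oxidised glutathione, was lower by a like amount at both times, with log2FC -0.68, SE 0.085, FDR 7.79e-08 at EPS 0h and log2FC -0.72, SE 0.085, FDR 9.26e-09 at EPS 3h, and no overlap with Rest. *Slc7a11* varied widely between libraries (Rest 25.1 to 55.3 RPM, EPS 0h 19.1 to 65.7 RPM), and its log2FC of 0.11 and 0.32 did not pass the test.

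Of the 5 genes of the thioredoxin and peroxiredoxin group, 3 were lower at EPS 0h, *Txnrd1*, *Srxn1* and *Prdx6*, and *Txnrd1* was the 1 member that was lower at EPS 0h and higher at EPS 3h. *Txnrd1*, the cytosolic thioredoxin reductase, measured 651, 716 and 829 RPM at Rest, 425, 498 and 640.3 RPM at EPS 0h and 726, 903 and 1393 RPM at EPS 3h. The EPS 0h libraries all lay below both Rest and EPS 3h, while EPS 3h and Rest overlapped. It was 1.40-fold lower at EPS 0h (log2FC -0.48, SE 0.17, FDR 0.0262), 1.39-fold higher than Rest at EPS 3h (log2FC 0.47, SE 0.17, FDR 0.0231) and 1.94-fold higher at EPS 3h than at EPS 0h (log2FC 0.95, SE 0.18, FDR 0.000129). That last value was 1.05 and 0.88 in the 2 sets of replicates.

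*Srxn1*, the sulfiredoxin that repairs over-oxidised peroxiredoxins, was 272 (28.9) RPM at Rest and 148 (44.1) RPM at EPS 0h (log2FC -0.88, FDR 0.00813). At EPS 3h it ranged over 135 to 413 RPM, overlapping both groups (log2FC -0.24, FDR 0.459 against Rest). *Prdx6* followed *Txnrd1* in sign at a smaller scale, lower at EPS 0h (log2FC -0.23, FDR 0.0276) and higher at EPS 3h than at EPS 0h (log2FC 0.33, FDR 0.00572), with no overlap in either comparison. *Prdx1*, a peroxide-reducing enzyme, passed in Control only for the rise from EPS 0h to EPS 3h (log2FC 0.42, FDR 0.0173). *Txn1*, thioredoxin itself, was lower at EPS 3h (log2FC -0.31, FDR 0.0345).

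**Figure D4:**
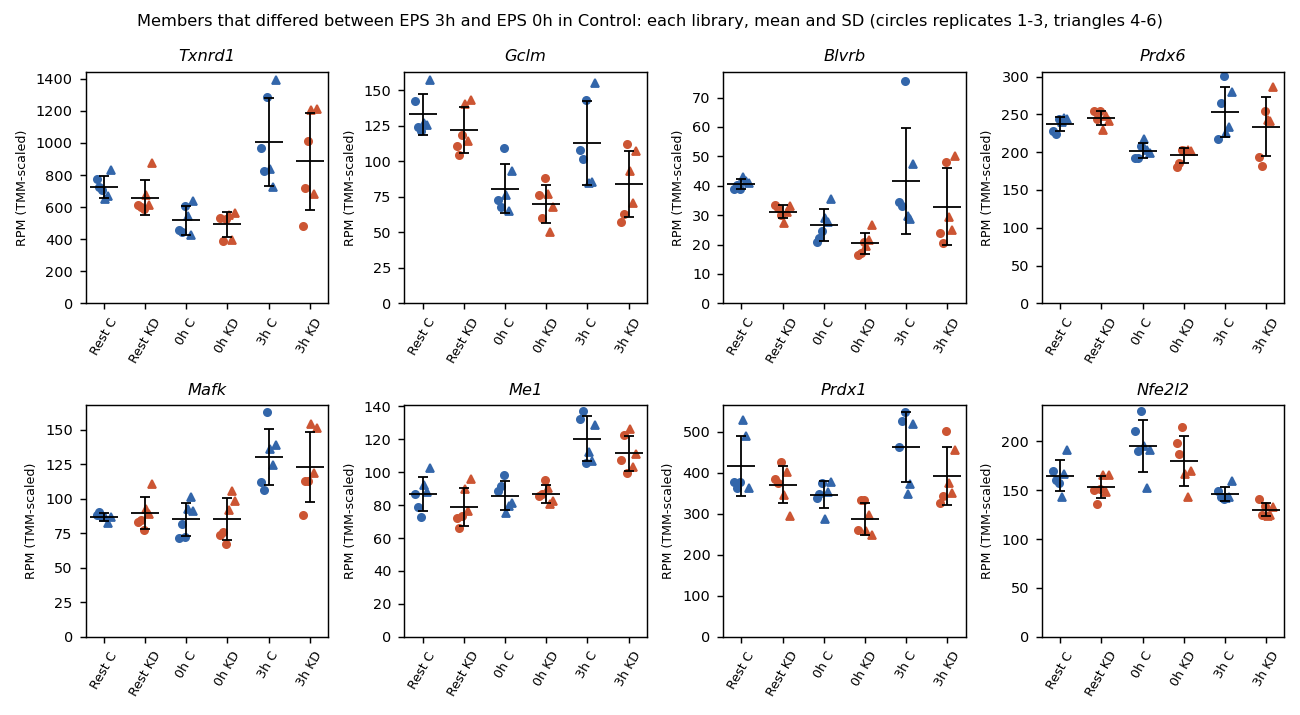
Level in RPM (y axis, from 0) of 8 of the 9 members that differed between EPS 3h and EPS 0h in Control, for every library in the 6 groups (x axis, C for Control in blue, KD for *Tug1* KD in orange), with circles for replicates 1 to 3, triangles for 4 to 6, and lines for mean and SD. In Control, *Txnrd1* dips from a resting mean of 726 RPM to one of 519 RPM at EPS 0h and then reaches 1006 RPM, and *Nfe2l2* is the 1 gene that falls between EPS 0h and EPS 3h.

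Of the 6 peroxidases, catalase and dismutases, 1 passed at each time. *Cat*, the peroxisomal catalase, was lower at both times (log2FC -0.42, FDR 0.000105 and log2FC -0.32, FDR 0.00116), with no resting library below a stimulated one. *Gpx1*, *Gpx3* and *Gpx4*, the glutathione peroxidases, had log2FC between -0.04 and 0.10 at EPS 0h and none passed. *Sod1*, the cytosolic dismutase, gave log2FC -0.20, FDR 0.21, and *Sod2*, its mitochondrial counterpart, log2FC -0.16, FDR 0.0676, or log2FC -0.16, FDR 0.0315 with the replicate number as a block.

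Of the 8 genes for conjugation and export, 4 were lower at both times. *Gsta4* (chr9:78090056-78117763, plus strand), a glutathione transferase of lipid peroxidation products, measured 114, 122 and 129 RPM at Rest, 29.0, 36.8 and 54.2 RPM at EPS 0h and 29.0, 31.2 and 64.1 RPM at EPS 3h, with no overlap with Rest. It was 3.14-fold lower (log2FC -1.65, SE 0.21, FDR 1.32e-07) and 3.08-fold lower (log2FC -1.62, SE 0.21, FDR 6.01e-08). *Gstm1* (chr3:107919380-107925380, minus strand), a mu-class transferase, measured 96.9, 105 and 132 RPM at Rest, 44.1, 48.9 and 60.9 RPM at EPS 0h and 44.3, 54.3 and 67.0 RPM at EPS 3h, also apart from Rest. It was 2.14-fold lower (log2FC -1.10, SE 0.12, FDR 7.61e-09) and 1.99-fold lower (log2FC -0.99, SE 0.12, FDR 1.73e-08). *Gstp1*, the pi-class transferase, and *Abcc1*, an exporter of glutathione conjugates, had smaller falls, at -0.65 and -0.58 for *Gstp1* and -0.73 and -0.47 for *Abcc1*. 

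The microsomal transferases were less uniform. *Mgst1* was 11.5 (6.38) RPM at Rest and 6.22 (3.36) RPM at EPS 0h, but its resting mean was 5.96 RPM in replicates 1 to 3 and 17.1 RPM in replicates 4 to 6. It did not pass at EPS 0h (log2FC -0.89, FDR 0.0746) or EPS 3h (log2FC -0.79, FDR 0.0932), and did with the replicate number as a block (log2FC -0.87, FDR 7.05e-06 and log2FC -0.74, FDR 4.63e-05). *Gstm2*, another mu-class transferase, gave log2FC -0.25, FDR 0.274 and log2FC -0.30, FDR 0.153 without the block and log2FC -0.26, FDR 0.0458 and log2FC -0.29, FDR 0.0204 with it. *Mgst2* and *Mgst3* gave log2FC -0.21 and -0.10 at EPS 0h and passed at neither time.

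Of the 5 genes for NADPH supply, 3 were lower at EPS 0h, and at EPS 3h 2 were lower and 1 higher. *G6pdx* (chrX:73449857-73472819, minus strand), glucose-6-phosphate dehydrogenase, the entry to the pentose phosphate pathway, measured 48.1, 66.0 and 78.5 RPM at Rest, 23.5, 29.9 and 35.1 RPM at EPS 0h and 18.9, 28.5 and 37.4 RPM at EPS 3h, with no overlap with Rest. It was 2.22-fold lower (log2FC -1.15, SE 0.17, FDR 1.39e-06) and 2.24-fold lower (log2FC -1.16, SE 0.17, FDR 4.66e-07). *Pgd* (chr4:149233246-149251228, minus strand), 6-phosphogluconate dehydrogenase, the next NADPH-forming enzyme, measured 288, 356 and 444 RPM at Rest, 108, 161 and 216 RPM at EPS 0h and 134, 187 and 291 RPM at EPS 3h. Only the EPS 0h libraries were clear of Rest. It was 2.28-fold lower at EPS 0h (log2FC -1.19, SE 0.22, FDR 5.91e-05) and 1.78-fold lower at EPS 3h (log2FC -0.84, SE 0.22, FDR 0.0018). For both genes the resting libraries of replicates 4 to 6 all lay above those of replicates 1 to 3, with means of 76.9 and 51.7 RPM for *G6pdx* and 425 and 297 RPM for *Pgd* in the later and the earlier numbers.

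In the non-oxidative branch, *Tkt*, transketolase, was lower at EPS 0h (log2FC -0.80, FDR 0.00289) and gave log2FC -0.47, FDR 0.0611 at EPS 3h, or log2FC -0.49, FDR 0.000234 with the replicate number as a block, while *Taldo1*, transaldolase, gave log2FC -0.22, FDR 0.137 and log2FC -0.07, FDR 0.67. *Me1*, the malic enzyme, which forms NADPH outside the pentose phosphate pathway, did not pass at EPS 0h (log2FC -0.02, FDR 0.887) and was higher at EPS 3h (log2FC 0.47, SE 0.094, FDR 6.93e-05), at 86.9 (10.2), 85.8 (8.64) and 120.4 (13.8) RPM, with every EPS 3h library above every library of Rest and EPS 0h.

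The EPS comparisons were repeated within *Tug1* KD, whose stimulated libraries were set against its own Rest libraries. At EPS 0h 27 fell and 2 rose, where 21.2% of all genes fell and 24.4% rose (45.6% in all), and the member median was -0.41. At EPS 3h 16 fell and 4 rose, where 25.9% and 26.2% of all genes did (52.1% in all), and the median was -0.19. With scaling by library size only the counts at EPS 3h were 24 lower and 3 higher, where 8491 of all 13995 genes passed. At the stricter cut 7 members were lower at EPS 0h (2.50% of all genes), and at EPS 3h 5 were lower (4.49%) and 1 higher (11.0%). *Nqo1* gave log2FC -2.41 and -2.06, *Aldh3a1* -2.41 and -2.09, *Osgin1* -1.38 and -1.24, and *Maff* 0.79 and 1.44 at EPS 0h and EPS 3h. *Keap1* gave -0.71 and -0.77, *Gsr* -0.74 and -0.73, *Gsta4* -1.60 and -1.56, *G6pdx* -1.19 and -1.20, and *Txnrd1* -0.42 and 0.42. *Ftl1* (log2FC -0.55, FDR 0.0386), *Prdx1* (log2FC -0.37, FDR 0.0161), *Sod1* (log2FC -0.36, FDR 0.0177), *Sod2* (log2FC -0.20, FDR 0.0218), *Mgst2* (log2FC -0.51, FDR 0.0161) and *Taldo1* (log2FC -0.34, FDR 0.018) passed as lower at EPS 0h in *Tug1* KD, and had not passed in Control. *Nfe2l2* passed as higher (log2FC 0.24, FDR 0.0276), with log2FC 0.47 and -0.00 in the 2 sets of replicates, and at EPS 3h as lower (log2FC -0.23, FDR 0.0267).

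The difference between the EPS responses of *Tug1* KD and Control was tested directly as an interaction. No member passed at EPS 0h or at EPS 3h with edgeR, and the count was also 0 with limma-voom and DESeq2, and 0 at an unadjusted p under 0.05. Over all genes, 0.00% and 0.00715% passed. The differences in log2FC ran from -0.34 to 0.30 at EPS 0h and from -0.34 to 0.24 at EPS 3h, with SEs of 0.10 to 0.56 (median 0.22) at both times. The lowest unadjusted p was 0.093 for *Gpx3* at EPS 0h and 0.174 for *Prdx6* at EPS 3h.

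*Tug1* KD was compared with Control within each condition, to ask what the knockdown did to these genes with and without stimulation. All members that passed with edgeR were lower in *Tug1* KD: 2 at Rest, 9 at EPS 0h and 2 at EPS 3h. DESeq2 called 1 more at Rest, as higher. Of all genes, 10.0% differed at Rest (4.47% lower), 14.3% at EPS 0h (6.07% lower) and 11.5% at EPS 3h (5.11% lower). The count of lower members was thus near the background at Rest and EPS 3h and above it at EPS 0h. The member median log2FC was -0.17 at Rest, -0.20 at EPS 0h and -0.18 at EPS 3h, against -0.03, 0.00 and -0.01 for all genes, with 35, 33 and 36 of the 42 below 0. At Rest the groups did not overlap for 5 members, all lower, against 3.73% of all genes, and of these *Blvrb*, *Gsta4*, *Gstm1* and *Gstp1* did not pass the test while *Mgst2* did. At EPS 3h that median came to -0.35 over replicates 1 to 3 but -0.06 over replicates 4 to 6.

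*Mgst2* (chr3:51567781-51590098, plus strand), which was the lowest member per length, was the 1 gene that differed in all 3 conditions. It measured 6.10, 8.51 and 9.25 RPM in Rest Control and 2.76, 4.04 and 4.71 RPM in Rest *Tug1* KD. At EPS 0h it measured 6.07, 7.21 and 7.73 RPM in Control and 1.98, 2.72 and 3.71 RPM in *Tug1* KD, and at EPS 3h 5.86, 7.67 and 10.6 RPM and 3.43, 4.31 and 5.68 RPM. In each condition every *Tug1* KD library lay below every Control library, which for all genes held in 3.73% at Rest, 3.11% at EPS 0h and 1.94% at EPS 3h. It was 2.09-fold lower at Rest (log2FC -1.07, SE 0.16, FDR 1.89e-05), 2.56-fold lower at EPS 0h (log2FC -1.36, SE 0.17, FDR 4.16e-07) and 1.84-fold lower at EPS 3h (log2FC -0.88, SE 0.17, FDR 0.000309). The 2 sets of replicates gave log2FC -1.07 and -1.06 at Rest, -1.22 and -1.50 when stimulation ended and -0.95 and -0.77 in recovery.

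*Maff* was lower at Rest and at EPS 0h. Its *Tug1* KD libraries measured 41.9, 50.3 and 59.5 RPM at Rest and 70.2, 87.2 and 100.2 RPM at EPS 0h, against 55.8, 67.0 and 77.9 RPM and 96.0, 117 and 138 RPM in Control, and the ranges overlapped at both. It was 1.34-fold lower at Rest (log2FC -0.42, SE 0.13, FDR 0.0275) and 1.38-fold lower at EPS 0h (log2FC -0.46, SE 0.13, FDR 0.0099), and at EPS 3h gave log2FC -0.22, FDR 0.307. *Osgin1* was lower at EPS 0h and EPS 3h, with *Tug1* KD libraries at 53.7, 76.7 and 131 RPM and 51.7, 98.5 and 144 RPM against 89.6, 128 and 196 RPM and 82.8, 162 and 220.2 RPM in Control. The ranges overlapped, and the values were log2FC -0.71, SE 0.24, FDR 0.0412 at EPS 0h and log2FC -0.71, SE 0.24, FDR 0.0495 at EPS 3h, both close to the threshold.

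The other 6 members lower at EPS 0h were spread over several roles. *Nqo1* measured 6.44, 7.80 and 10.8 RPM in *Tug1* KD against 8.28, 11.2 and 15.5 RPM in Control (log2FC -0.57, SE 0.18, FDR 0.0314), with overlap. *Gsr* measured 37.1, 38.8 and 43.9 RPM against 42.7, 47.4 and 52.4 RPM (log2FC -0.25, SE 0.085, FDR 0.0454), also with overlap. *Gpx3*, the secreted glutathione peroxidase, measured 35.3, 46.2 and 52.4 RPM against 53.5, 59.8 and 69.6 RPM (log2FC -0.41, SE 0.11, FDR 0.00708), and its groups did not overlap. *Gpx4* measured 299, 388 and 439.7 RPM against 419, 493 and 565 RPM (log2FC -0.40, SE 0.13, FDR 0.0309), and *Sod1* 105, 118 and 144 RPM against 139.8, 153 and 171 RPM (log2FC -0.36, SE 0.12, FDR 0.0466), and in both the ranges overlapped. *Mgst3* measured 26.6, 29.1 and 30.9 RPM against 37.4, 42.6 and 44.0 RPM (log2FC -0.51, SE 0.14, FDR 0.0104), with every *Tug1* KD library below every Control library. All 9 had the same sign in both sets of replicates.

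**Figure D5:**
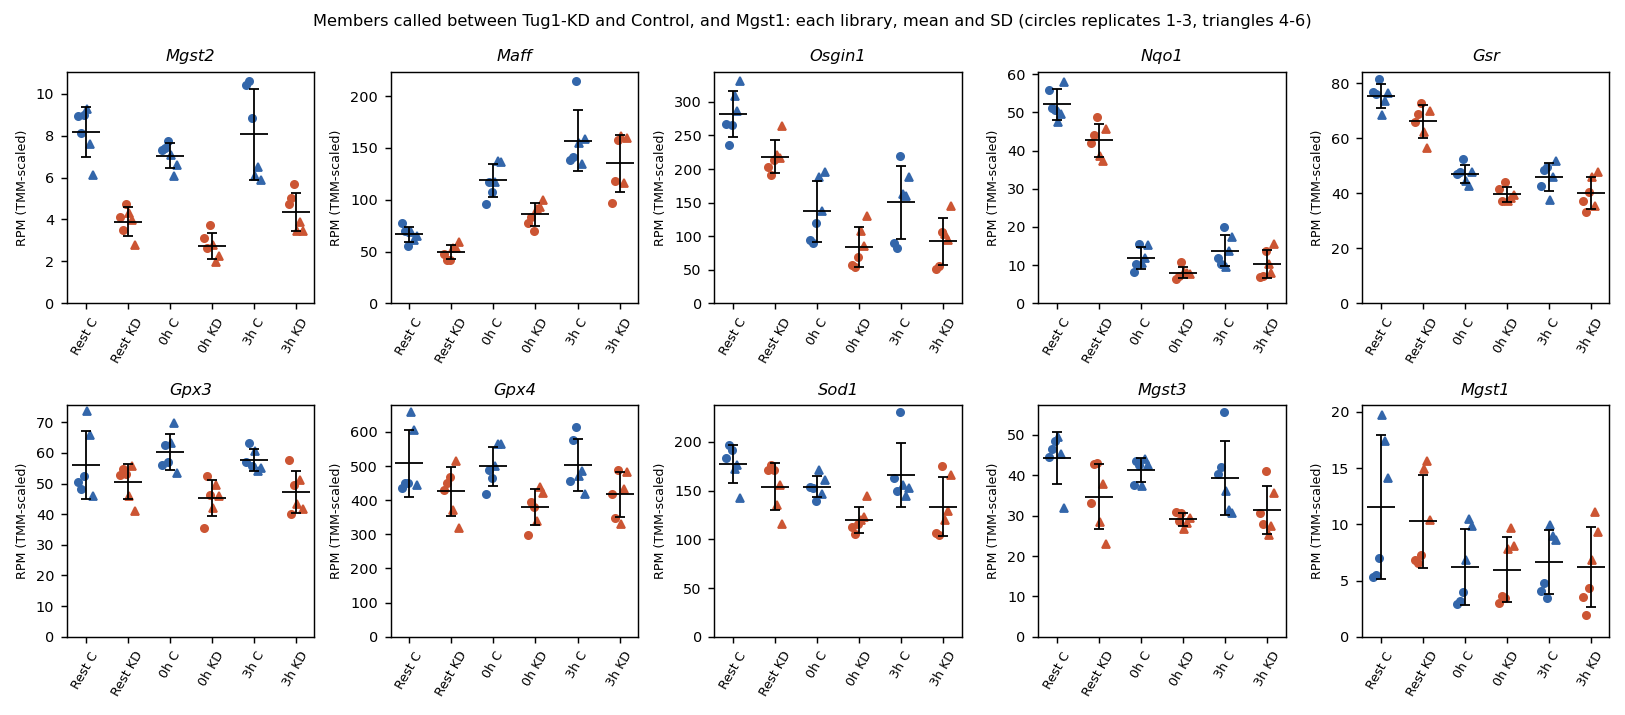
Level in RPM (y axis, from 0) of the 9 members lower in *Tug1* KD at Rest, EPS 0h or EPS 3h, and of *Mgst1*, for every library in the 6 groups (x axis, C for Control in blue, KD for *Tug1* KD in orange), with circles for replicates 1 to 3, triangles for 4 to 6, and lines for mean and SD. *Mgst2* is separated by *Tug1* KD in all 3 conditions, and *Mgst1* shows the triangles above the circles.

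Libraries with the same replicate number deviated together at EPS 0h and EPS 3h. Different numbers of the same set were not compared across groups. These correlations alone therefore do not separate pairing by number from the difference between replicates 1 to 3 and 4 to 6. Both kinds of block were fitted. A block for the 2 sets passed 3178 of all 13995 genes at EPS 0h and 2610 at EPS 3h. A block for the number passed 3406 and 2878. With the number as a block, the count of members that differed went from 9 to 14 at EPS 0h (33.3% of the 42). At EPS 3h it went from 2 to 11 (26.2%). The block also raised the share of all genes that differed, to 24.3% at EPS 0h and 20.6% at EPS 3h. At EPS 0h the block added *Keap1* (log2FC -0.48, FDR 0.00118), *Gpx1*, *Gstm1* and *Gstm2* as lower and *Abcc1* (log2FC 0.41, FDR 0.000673) as higher. At EPS 3h it added *Keap1* (log2FC -0.32, FDR 0.0349), *Nqo1* (log2FC -0.43, FDR 0.0159), *Gclm*, *Gpx1*, *Gpx3*, *Cat*, *Gstm1* and *Gstp1* as lower and *Abcc1* (log2FC 0.34, FDR 0.00542) as higher. *Nfe2l2* did not pass in any condition (log2FC -0.11, FDR 0.556 at Rest, log2FC -0.12, FDR 0.428 at EPS 0h and log2FC -0.17, FDR 0.247 at EPS 3h), and *Keap1* without the block gave log2FC -0.31, FDR 0.307, log2FC -0.49, FDR 0.054 and log2FC -0.31, FDR 0.28.

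A wider list of 76 genes of the same pathways was followed beside the members, of which 65 passed the filter on low counts. In control myotubes 23 of the 65 were lower and 6 higher at EPS 0h, with a median log2FC of -0.12, and 18 were lower and 6 higher at EPS 3h. These are 35.4% lower and 9.23% higher at EPS 0h, where 18.4% and 20.5% of all genes were, and 27.7% lower and 9.23% higher at EPS 3h, against 25.9% and 26.1%. With the replicate number as a block, 27 were lower and 7 higher at EPS 0h, where 49.9% of all genes passed. At EPS 3h the block gave 23 lower and 10 higher, where 61.2% of all genes passed. The alpha-class glutathione transferases had the largest falls at EPS 0h, with *Gsta1* at 19.0 (6.11) RPM at Rest and 3.82 (1.24) RPM after EPS (log2FC -2.31, SE 0.29, FDR 7.33e-08). *Gsta2* (log2FC -2.04, FDR 6.16e-05) and *Gsta3* (log2FC -2.18, FDR 0.000299) were also lower, and the 3 are closely related copies whose reads may be shared. *Gsta3*, with an EPS 0h mean of 0.344 RPM, passed the filter through the groups where it was higher. *Slc40a1*, the iron exporter ferroportin, was 45.9 (2.61) RPM at Rest, 16.3 (6.96) at EPS 0h and 11.8 (3.05) at EPS 3h (log2FC -1.50, FDR 8.6e-07 and log2FC -1.96, FDR 2.22e-09). *Cbr3*, a carbonyl reductase, was lower at EPS 0h (log2FC -1.37, FDR 0.000268), and *Gstt2*, a theta-class transferase, at EPS 3h (log2FC -1.15, FDR 6.31e-05), both past the stricter cut.

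The 2 genes of the wider list past the stricter cut as higher were *Nfe2l3*, a relative of *Nfe2l2*, and *Chac1*, which degrades glutathione and is known as a stress target of ATF4. *Nfe2l3* rose from 0.845 (0.203) RPM to 3.10 (1.31) RPM at EPS 0h and 3.50 (1.32) RPM at EPS 3h (log2FC 1.86, FDR 1.51e-05 and log2FC 2.04, FDR 1.46e-06). With a resting mean under 1 RPM it passed the filter on low counts through the stimulated groups, which favours a difference in this direction. *Chac1* rose from 71.3 (18.5) to 216 (73.1) RPM at EPS 0h (log2FC 1.60, FDR 2e-06), and ranged over 59.9 to 145 RPM at EPS 3h. In *Tug1* KD at Rest 7 of the 65 were lower (10.8%, against 4.47% of all genes) and 2 higher, where 10.0% of all genes differed in either direction. The lower ones included *Gsta1* (log2FC -1.12, FDR 0.00482), *Txnip*, the thioredoxin inhibitor (log2FC -0.70, FDR 0.0406), *Chac2* (log2FC -0.63, FDR 0.0115), *Htatip2* (log2FC -0.58, FDR 0.0429), *Msrb2*, a methionine sulfoxide reductase (log2FC -0.54, FDR 0.0107), and *Gss*, glutathione synthetase (log2FC -0.46, FDR 0.00118).

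Genes of proliferating or undifferentiated myoblasts, the other cells such a culture can hold, were present throughout. The summed level of the 6 such markers was 136 to 176 RPM over the Rest Control libraries, 174 to 209.8 RPM at EPS 0h and 123 to 178 RPM at EPS 3h, against 16104 to 20340.2 RPM for the 10 myotube markers at Rest, and none of the 16 was at 0 in any library. In Control at EPS 0h, *Mki67* (log2FC 0.44, FDR 0.0299) and *Myf5* (log2FC 1.31, FDR 3.54e-06) were higher and *Ccnb1* (log2FC -0.37, FDR 0.0181) lower, beside the falls of the members given above. At EPS 3h in Control *Mki67* (log2FC 0.41, FDR 0.0351) was higher and *Pax7* (log2FC -0.62, FDR 0.000339) and *Ccnb1* (log2FC -0.42, FDR 0.00482) were lower, and between EPS 0h and EPS 3h *Pax7* (log2FC -0.93, FDR 6.65e-06) and *Myf5* (log2FC -0.97, FDR 0.000588) fell. With the replicate number as a block *Pax7* also passed as higher at EPS 0h.

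Within *Tug1* KD at EPS 0h, *Ttn* (log2FC 0.87, FDR 0.00608) was higher and *Tnnt3* (log2FC -0.48, FDR 0.013) lower among the myotube markers. Of the myoblast markers, *Mki67* (0.73), *Pax7* (0.34) and *Myf5* (1.41) were higher and *Ccnb1* (-0.38) lower in log2FC, and the block for the replicate number added *Myh3*. At EPS 3h *Ttn* (log2FC 0.71, FDR 0.0201) was higher and *Myog* (log2FC -0.29, FDR 0.0266) lower, with *Mki67* at 0.72, *Pax7* at -0.51 and *Ccnb1* at -0.56, all past the threshold.

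Between *Tug1* KD and Control, edgeR called 0 of the 16 at Rest and at EPS 0h, where 4 and 5 had an unadjusted p under 0.05 and limma-voom and DESeq2 called 0 at Rest and 1 at EPS 0h. At EPS 3h it called 1, *Ccnb1* (log2FC -0.39, FDR 0.0407). With the replicate number as a block 6 of the 16 passed at EPS 0h and 6 at EPS 3h. Those at EPS 0h were *Ckm* (FDR 0.00101), *Myh8*, *Cdk1* and *Myf5* as lower and *Actc1* and *Ttn* (FDR 0.00415) as higher, and those at EPS 3h *Myh8* (FDR 8.32e-05), *Ckm*, *Ccnb1* and *Myf5* as lower and *Actc1* and *Ttn* as higher. Their part in the member values was not tested.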

How the data were processed

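Poly-A RNA libraries of the 36 wells were sequenced and processed by the authors, and the deposited table holds raw counts of reads per gene. The submitters' processing notes name FastQC 0.11.7, fastp 0.14.1, STAR 2.5 and GRCm39. The counting tool's strand and multi-mapping settings are not given in the sources used here. The 1492 genes without a name held 0.0327% of the counts. Groups and replicate numbers came from the sample titles.

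Genes with at least 1 CPM in at least 12 of 36 libraries (13995) were fitted with edgeR 4.0.16 in R 4.3.3 (TMM factors, robust quasi-likelihood, all 6 groups in 1 model, no block), and 10 comparisons were tested with Benjamini-Hochberg adjustment over all genes tested. The SE is the absolute log2FC divided by the square root of the F statistic. RPM are TMM-scaled, and RPM per kb use the merged length of all annotated exons of a gene in the GENCODE annotation. On simulated counts for EPS 0h against Rest in Control over 13995 genes, edgeR recovered 84% of 200 genes set to a log2FC of 1, with 8 false calls. The simulated libraries were drawn independently, without sets of replicates, and only those 200 genes changed. The share recovered therefore does not measure power in these data. No 2 libraries of a group agreed within sampling noise (lowest chi-square per degree of freedom 4.37).

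The members, the wider list, the 8 role groups and the tests were chosen with earlier results of these data known. Named were *Nfe2l2*, *Keap1*, members past the stricter cut after EPS in Control, members called in *Tug1* KD and those with a called interaction, with the rest given by group. From the wider list, at most 6 genes in each direction past the stricter cut after EPS and 6 called in *Tug1* KD at Rest were named. Same-number libraries were taken to deviate together where every such pair had r above 0.1. *Tug1* KD and Control did so at EPS 0h (r 0.57 to 0.714) and EPS 3h (0.207 to 0.716). In Control, EPS 0h (0.232 to 0.472) and EPS 3h (0.122 to 0.501) did so with Rest. In *Tug1* KD, EPS 0h did so with Rest (0.156 to 0.376). The cut was missed by *Tug1* KD against Control at Rest (-0.0767 to 0.538) and by EPS 3h against EPS 0h in Control (-0.029 to 0.696). EPS 3h against Rest in *Tug1* KD missed it narrowly (0.0771 to 0.412), and the interactions missed it too. For comparisons that met the cut, blocked values are given where a member's call changed, and as counts or named genes for the markers and the wider list. Other alternatives were limma-voom (limma 3.58.1), DESeq2 1.42.0, library size only, upper quartile factors, no or a stricter low-count filter (10 counts in 6 libraries), a block for replicates 1 to 3 and 4 to 6, the compared groups only, and each set of replicates alone.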

Additional observations from a re-analysis of the deposited data

Results flagged for a closer look

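Of 252 combinations of a member and a group of 6 libraries, 11 held a library whose gap to its nearest neighbour was above Dixon's critical value, and chance gives about 1 in 20. Among the resting control libraries, replicate 6 was highest for *Srxn1* (327 RPM, next 274), *Cat* (122 RPM, next 107) and *Gstm1* (132 RPM, next 110.1) and lowest for *Mgst3* (31.9 RPM, next 44.5). In EPS 3h Control, replicate 3 was highest for *Maff* (215 RPM, next 159), *Ftl1* (273 RPM, next 159) and *Sod1* (231 RPM, next 163), and replicate 1 was lowest for *Gpx1* (113 RPM, next 142). In Rest *Tug1* KD, replicate 5 was highest for *Gpx1* (149 RPM, next 123) and *Gstm2* (14.6 RPM, next 12.7), and replicate 6 for *Txnrd1* (873 RPM, next 673).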

How the results depend on the processing

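Over 113 called pairs of member and comparison and 11 alternatives, 1132 of 1243 values kept direction and threshold, 110 lost the threshold and 1 reversed. The reversed value was that of *Nfe2l2* at EPS 0h in *Tug1* KD, which in replicates 4 to 6 alone gave a log2FC of -0.0005 (FDR 0.998). Losses were most frequent in replicates 4 to 6 alone (33), replicates 1 to 3 alone (26), both with fewer samples, and without a low-count filter (21), where 39727 genes were tested. They numbered 10 with the compared groups only, 7 each with library size only and the stricter filter, 3 with limma-voom, 2 with upper quartile factors, 1 with DESeq2 and 0 with either block.

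Of 165 counts of members, 144 stayed within 1.5 times the reported count. For *Tug1* KD at Rest (2 reported), 1 passed without a filter, 8 with the replicate block, 6 with the block for the 2 sets, 10 with the compared groups only and 8 in replicates 4 to 6. The 8 with the replicate block were 19.0% of the members, near the 17.2% of all genes that passed with it. At EPS 0h (9), 4 passed without a filter, 14 with the replicate block and 1 in replicates 1 to 3. At EPS 3h (2), 1 passed with limma-voom, without a filter, with the stricter filter and with the compared groups only, 11 with the replicate block, 5 with the block for the 2 sets and 4 in replicates 4 to 6. For EPS 3h against EPS 0h in Control (9), 4 passed without a filter and 3 in replicates 4 to 6, and at the stricter cut (0) 1 in replicates 1 to 3. For EPS 0h in *Tug1* KD (29), 18 passed in replicates 4 to 6. At the stricter cut, 8 passed at EPS 3h in Control with library size only (5 reported) and 10 at EPS 3h in *Tug1* KD in replicates 1 to 3 (6 reported). Beyond fewer samples or more genes tested, the cause was not tested.

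Libraries with the same replicate number did not all deviate together in *Tug1* KD against Control at Rest. Nor did they in EPS 3h against EPS 0h in Control, where the block gave 13 members (31.0%, against 25.2% of all genes). In EPS 3h against Rest in *Tug1* KD the lowest r was 0.0771, just under the cut of 0.1. There the block gave 23 members (54.8%, against 61.4% of all genes), with *Mgst1*, *Abcc1* and *Tkt* added. In EPS 0h against Rest in *Tug1* KD, where same-number libraries did deviate together, 31 passed with the block (73.8%, against 56.9% of all genes), with *Gstm2* and *Mgst1* added. Among the members, in the other comparisons where they did, the block changed no call beyond those given in the results, and it removed none. Marker calls that it changed are given with the markers. Without TMM, the median of all genes shifted by -0.169 (Control) and -0.166 (*Tug1* KD) at EPS 3h against Rest. Every member had at least 32 counts in every library.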
